A study of Mus musculus with 20 samples.

Results

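The comparison set every tumor-bearing tissue treated with CM272 and cisplatin against every untreated one, over both sites that were sampled. It used 15 of the 20 arrays: 4 treated (3 bladders and 1 metastasis) and 11 untreated (7 bladder tumors and 4 metastases). Members were chosen by their labels, with earlier results of these data known, and the 5 control bladders were left out of the comparison. The question was whether the drug pair left a change that primary and metastatic tissue share, so the fit held the site, bladder or metastasis, as a covariate.

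All animals, treated or not, were FVB/N mice of 1 genotype, in which Rb is floxed and its relative p107 is lost, among other alleles that are not described here. Tumors were started with an adenovirus coding for Cre recombinase placed in the bladder, which deletes floxed genes in the cells it enters, while other cells of the tissue keep them. Treated mice received CM272 at 5 mg/kg per day for 30 days into the peritoneal cavity, with cisplatin (CDDP) at 6 mg/kg once per week. RNA came from whole tissue with a kit for fixed, embedded material, and 12 ng per sample was labelled. The labels do not say that the samples of a group came from separate animals, so p-values measure only how far these samples differ from each other, and that spread may be technical. In bulk tissue, fewer cells of a type and less RNA per cell cannot be told apart.

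CM272 blocks the catalytic sites of G9a, the methyltransferase that places repressive marks on histone H3 lysine 9, and of the DNA methyltransferases. Inhibitors of this kind are known to reopen genes silenced by DNA methylation, among them germline genes and endogenous elements that can start an interferon response. Cisplatin crosslinks DNA, which stalls replication and calls on nucleotide excision repair and the Fanconi anemia pathway. In cells that have lost Rb, E2F factors drive replication genes with little restraint.

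The arrays differed in ways that bear on every value below. In 5 untreated arrays (bladder tumor 3, 4 and 5, metastasis 3 and 4) the deviations of genes from their means correlated with those of no other array above 0.11, against 0.33 to 0.59 for the highest correlation of each of the other 10. These arrays are called near-mean, and no treated array was among them, so the counts of genes and most list medians are also given without them (4 treated and 6 untreated arrays). The median log2 value of an array lay between 5.07 and 5.42. The luminal marker Upk1b, a urothelial plaque protein, read 6.59 to 13.4 in bladder tumors and 9.16 to 12.1 in treated bladders. Upk3a, another plaque protein, read 4.55 in bladder tumor 6 and 12.2 in bladder tumor 7, so the tissues labelled bladder tumor spanned a wide range of urothelial RNA.

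No gene passed the test. Of 30142 genes, 0 (0%) had an adjusted p under 0.05 in limma's test with site as a covariate, and the lowest adjusted p was 0.892, for Olfr981. At an unadjusted p under 0.05 there were 59 genes (0.196%). Without the near-mean arrays 0 genes (0%) passed, and 46 (0.153%) had an unadjusted p under 0.05. Evenly spread p-values would place a share of 0.05 of all genes there, and both counts lie far below that. The reason was not tested, so the lack of passing genes is not read as a lack of change. Differences were small: the median over all genes was -0.01, 13101 genes (43.5%) lay above 0, and the 5th and 95th percentiles were -0.12 and 0.15 on the log2 scale. Only 5 genes differed by 1 or more, which is 2-fold. All differences below are treated minus untreated on the log2 scale, and none of them passed after adjustment.

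All 4 treated arrays read above all 11 untreated arrays for 12 genes (0.0398% of those tested) and below them for 0 genes (0%). How many genes would separate so by chance was not computed, so these counts are not read as an effect of treatment. The 12 were Olfr981, Gm10139, Gm25128, Rpl41, Rpph1, Eef1a1, Rpl31-ps8, Rn28s1, Rn7s1, Rn7s2, Mir3470a and Mir3473a. Rn7s1 and Rn7s2 held the same values on every array. Most are among the most abundant RNAs of any cell: Rpl41 codes for a ribosomal protein, Eef1a1 for the factor that brings aminoacyl-tRNA to the ribosome, Rpph1 is the RNA of ribonuclease P, Rn28s1 is ribosomal RNA and Rn7s1 is the RNA of the signal recognition particle.

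Rpl41 read 15.35, 15.42 and 15.36 in the treated bladders and 15.43 in the treated metastasis. It read 13.9 to 15.1 in the bladder tumors (median 14.9) and 15.07, 15.05, 13.96 and 13.77 in the metastases. The groups did not overlap, and the untreated arrays themselves fell into a high set and, for the near-mean arrays, a low set. The difference was 0.85 ± 0.28 (SE), with an exact permutation p of 0.00833 within sites, where 600 arrangements allow no p below 0.00167. It was 0.36 without the near-mean arrays and 0.067 with quantile normalization once more. Rpph1 read 11.53, 11.89 and 11.67 in treated bladders and 11.85 in the treated metastasis, against 10.1 to 11.5 in bladder tumors and 11.48, 11.46, 10.80 and 10.60 in metastases. Its difference was 0.75 ± 0.25 and 0.52 without the near-mean arrays (exact permutation p = 0.01). Rpl41 and Rpph1 are described because their treated readings lay above all untreated ones. Small permutation p-values follow from that choice, are not adjusted for the number of genes and add no support.

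Eef1a1 read 12.60, 12.74, 12.64 and 12.75 in the treated arrays, above an untreated range of 11.3 to 12.6 by a narrow margin. Its difference was 0.56 ± 0.25, 0.33 without the near-mean arrays and 0.36 with quantile normalization once more. Olfr981, an olfactory receptor gene with a low reading throughout, gave 6.01, 5.77 and 5.76 in treated bladders and 5.65 in the treated metastasis. Bladder tumors read 4.70 to 5.37 (median 4.87), and metastases 4.84, 5.12, 5.14 and 4.65. The difference was 0.80 ± 0.14, of similar size at both sites (0.83 in bladder and 0.71 in metastasis), with the smallest exact permutation p the design allows, 0.00167. That p is not adjusted for the number of genes. Olfr981 was named after its values were seen, so the p adds no support. The control bladders, which were not treated, read 4.93 to 5.93 for this gene and so overlapped the treated arrays.

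The predicted genes Gm10139 and Gm25128 differed by 0.90 ± 0.20 and 1.097 ± 0.29, and by 0.71 and 0.36 with quantile normalization once more. Mir3470a, Rpl31-ps8, Rn7s1 and Mir3473a differed by 1.29, 1.06, 0.85 and 0.60, and by 1.07, 0.63, 0.40 and 0.36 without the near-mean arrays. With quantile normalization once more they differed by 1.02, 0.33, 0.15 and 0.18. Rn28s1 read 15.85 in all 4 treated arrays and no higher than 15.83 in the untreated ones. Its difference was 0.43, 0.03 without the near-mean arrays and -0.29 with quantile normalization once more, so its direction turned.

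**Figure D1:**
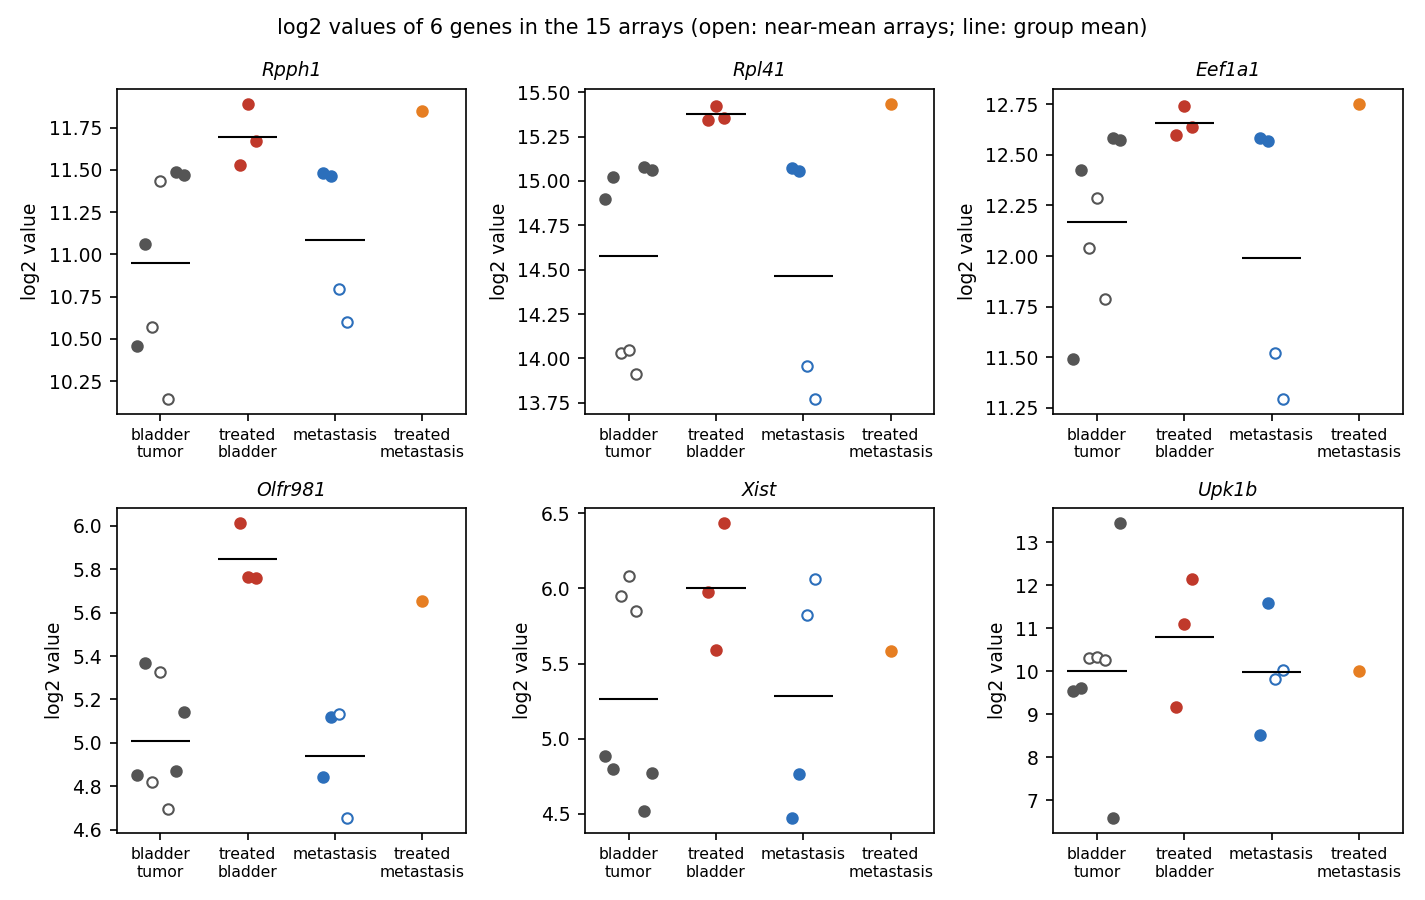
log2 values of Rpph1, Rpl41, Eef1a1, Olfr981, Xist and Upk1b in the 15 arrays, by group; each point is an array, open points are the near-mean arrays and the line is the group mean. For the first 4 genes every treated array lies above every untreated one, while Xist and Upk1b overlap between groups.

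The brightest genes had a median well above that of all genes. Over the 100 genes of the highest mean, the median difference was 0.51 and 99 lay above 0, beside a median of -0.01 over all genes. It was 0.18 without the near-mean arrays, with 87 above 0. The mean of these 100 genes was 14.6 to 14.98 in the treated arrays, 13.9 to 14.9 in the other 6 untreated arrays and 13.5 to 14.4 in the near-mean arrays. Whether that shift of the brightest values carries the differences of Rpl41, Eef1a1 and the like was not tested.

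Other genes with the smallest p among higher readings included RNAs that do not code for protein. Bc1, a small cytoplasmic RNA, differed by 0.62 ± 0.32, by 0.07 without the near-mean arrays and by -0.15 with quantile normalization once more, so its direction turned. Malat1, a nuclear RNA, differed by 0.44 ± 0.23, and by 0.28 without the near-mean arrays. The mitochondrial ribosomal RNA mt-Rnr1 read 15.96 to 16.02 in treated arrays and 14.3 to 16.9 in untreated ones. It differed by 0.60, by 0.37 without the near-mean arrays and by 0.00087 with quantile normalization once more. COX1, a subunit of cytochrome oxidase, read 15.69 to 15.75 in treated arrays and 12.5 to 16.7 in untreated ones. It differed by 0.76, by 0.33 without the near-mean arrays and by 0.16 with quantile normalization once more. The sources used here do not describe the upper end of the deposited scale, so the size of a difference between readings this high is uncertain. Orly differed by 0.48 ± 0.18, Mrgpra4 by 0.30, Krtap5-3 by 0.19, Speer4b by 0.18 and Dhrs2 by 0.14.

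Xist, the RNA that silences an X chromosome in females, read 5.98, 5.59 and 6.44 in treated bladders and 5.58 in the treated metastasis. It read 4.47 to 4.89 in the 6 untreated arrays that were not near-mean and 5.82 to 6.09 in the 5 that were. The difference was therefore 0.62 ± 0.34 over all arrays, where groups overlapped, and 1.18 without the near-mean arrays, where they did not. Xist read 10.76 and 10.88 in control bladders 1 and 2, far above every treated array. In control bladders 4, 5 and 6 it read 5.95, 6.04 and 6.02. The Y-linked genes Uty, Eif2s3y and Kdm5d read within the untreated range of the same site in every treated array. A sex difference between the groups was not tested.

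Among lower readings the smallest p belonged to Ropn1l, a sperm flagellum protein, with a difference of -0.17 ± 0.08 (exact permutation p = 0.01). It read 4.96, 4.77 and 4.92 in treated bladders against 4.90 to 5.17 in bladder tumors, and 4.48 in the treated metastasis against 4.67 to 4.78. Cldn9, a tight junction claudin, differed by -0.26, Bend4 by -0.22, Tram1l1 by -0.21, Morn5 by -0.20 and Dynap by -0.18. Ltc4s, which makes leukotriene C4, and Klre1, a receptor of natural killer cells, each differed by -0.17. Hs6st1, Mageb3, Tlx1 and Hspa13 lay between -0.16 and -0.14. These differences are smaller than 0.3 in size, and none passed. Ropn1l was named for its small p, so its permutation p adds no support. Ropn1l, Dynap, Tram1l1, Ltc4s, Morn5, Mageb3, Hs6st1 and Tlx1 read no higher than 5.17 on any of the 15 arrays. The mean of chemosensory receptor genes, the class of Olfr981, was 4.63 to 5.26 on these arrays, so such readings lie near the low end.

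Without the near-mean arrays, the 6 lower readings with the smallest p were, in that order, Prg4, Ctss, Osbpl11, Fcgr3, Ulbp1 and Arntl, and none passed. They differed by -0.33, -0.55, -0.29, -0.38, -0.30 and -0.20. Ctss is a lysosomal protease of antigen-presenting cells, Fcgr3 an antibody receptor and Arntl a clock factor. Ctss read 5.72, 5.96 and 5.19 in treated bladders and 5.48 to 6.95 in bladder tumors. In metastases it read 8.17, 7.97, 5.86 and 5.97 against 7.34 in the treated one, so the groups overlapped at both sites. Over all arrays these 6 genes differed by -0.24 to -0.08.

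The proliferation lists had medians a little below 0, with opposite signs at the sites. Of 28 measured mitosis and spindle genes, 0 passed (0% of all genes did), 28 lay below 0 and the median was -0.07, and -0.18 without the near-mean arrays. Of 25 E2F targets and replication genes, 0 passed, 25 lay below 0 and the median was -0.08, and -0.17 without the near-mean arrays. By site the mitosis median was -0.32 in bladder, with 28 of 28 below 0, and 0.53 in metastasis, with 28 of 28 above 0. The E2F median was -0.22 in bladder and 0.25 in metastasis. These genes vary together from sample to sample, so a count of members on one side is not a count of independent results.

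The mean of the mitosis genes read 5.34, 5.98 and 5.44 in treated bladders and 5.32 to 6.59 in bladder tumors (median 5.82). In metastases it read 6.79, 5.70, 5.84 and 5.74, against 6.59 in the treated one. Treated bladder 2 thus lay in the middle of the untreated range, and treated values overlapped untreated ones at both sites. Without the treated metastasis the mitosis median was -0.32, and without treated bladder 1 it was 0.06. The E2F median ran from -0.22 without the treated metastasis to 0.01 without treated bladder 3. With the near-mean arrays also left out, the mitosis median ran from -0.39 without the treated metastasis to -0.05 without bladder tumor 6, and the E2F median from -0.30 to -0.05 without the same arrays.

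Cdc20, which activates the anaphase-promoting complex, read 5.32, 5.81 and 5.09 in treated bladders, 5.04 to 6.42 in bladder tumors and 6.27 in the treated metastasis, against 6.22, 5.73, 5.58 and 5.50 in metastases. Its difference was -0.14 ± 0.24, and -0.20 without the near-mean arrays. Birc5 (survivin) differed by -0.10 and Kif2c, a kinesin that takes apart microtubules, by -0.09. Of the replication genes, Rrm1, the large subunit of ribonucleotide reductase, differed by -0.18, the helicase subunit Mcm2 by -0.14 and the GINS subunit Gins2 by -0.07.

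Promoters of the mitosis genes are shown because these members lay on one side of 0 together at each site and most hold a shared sequence element. The cell cycle genes homology region (TTTGAA, searched on both strands in the 300 bases from 250 before to 50 after the start, RefSeq, GRCm38.p6) was found in 19 of 24 mitosis genes with a window (79.2%), 20.2% of all 27018 genes and 2 of 13 smooth muscle genes. The CArG box, searched by name, was found in 0 of 13 smooth muscle windows and 1.81% of all genes. The 3 stretches below were chosen after values were seen. The capitals mark the element, on the strand of the gene or as its reverse complement.
Cdc20 (chr4:118437344-118437443, minus strand): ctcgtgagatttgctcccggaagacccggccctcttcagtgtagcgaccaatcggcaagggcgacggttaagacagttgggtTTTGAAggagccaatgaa
Kif2c (chr4:117178816-117178915, minus strand): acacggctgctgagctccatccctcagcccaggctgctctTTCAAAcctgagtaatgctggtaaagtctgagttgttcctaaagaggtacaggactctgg
Ccnb2 (chr9:70421662-70421761, minus strand): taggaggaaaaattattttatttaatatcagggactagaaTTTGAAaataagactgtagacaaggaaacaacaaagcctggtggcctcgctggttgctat
The element begins 18 bases before the start in Cdc20, 103 in Kif2c and 167 in Ccnb2. A match in these letters is a description of the window.

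The targets of CM272 themselves differed by less than the spread between arrays. Ehmt2, which codes for G9a, read 6.65, 6.98 and 6.74 in treated bladders and 6.88 in the treated metastasis, against 6.58 to 7.05 untreated, a difference of 0.03 ± 0.09. Its partner Ehmt1 (GLP) differed by -0.00 ± 0.11. Dnmt1, the maintenance DNA methyltransferase, differed by -0.14 ± 0.31, Dnmt3a by -0.01 and Dnmt3b by 0.00. Of 20 measured genes of the G9a and DNA methyltransferase network 0 passed, 6 lay above 0 and 14 below, and the median was -0.01, and -0.06 without the near-mean arrays. Tet1, which oxidises methylated cytosine, differed by 0.08, and Dnmt3l, a cofactor, by -0.06.

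Germline genes known to be silenced by DNA methylation had the median of all genes when both sites were in the fit. Of 25 germline genes 0 passed, 6 lay above 0 and 19 below, and the median was -0.01, both with and without the near-mean arrays. By site the germline median was 0.02 in bladder, with 17 of 25 above 0, and -0.11 in metastasis, with 21 of 25 below 0. The 3 with the smallest p were Tex19.1 at 0.13, the homeobox gene Rhox5 at 0.12 and Tex12 at -0.14. Tex19.1 read 4.98, 4.02 and 4.73 in treated bladders and 4.15 to 4.81 in bladder tumors, so 1 of 3 treated bladders exceeded the untreated range. Of 19 imprinted genes 0 passed, 10 lay above 0 and the median was 0.01, and 0.00 without the near-mean arrays. By site the imprinted median was -0.01 in bladder and -0.14 in metastasis. Peg3 differed by 0.15, Magel2 by -0.10 and Dlk1 by -0.05.

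Genes were also split into 4 equal sets by the ratio of observed to expected CpG in their promoter window, for the 17965 genes with a window. The median difference was -0.01 in each of the 4 sets. By site the order was opposite: in bladder the median went from 0.04 in the CpG-poorest set to -0.04 in the richest, and in metastasis from -0.13 to 0.05. The median level over arrays went from 4.99 to 5.77 across these sets, so CpG content and level moved together, and their parts were not told apart.

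Genes of the response to DNA damage had medians near that of all genes. Of 24 p53 targets 0 passed, 10 lay above 0 and the median was -0.01. Cdkn1a, the cell cycle inhibitor p21, read 6.30, 7.35 and 6.36 in treated bladders and 5.84 to 7.09 in bladder tumors, with 6.24 in the treated metastasis against 6.25 to 7.17. Its difference was -0.01 ± 0.24. Tnfrsf10b and Fas, both death receptors, differed by -0.08 and -0.07, and the damage sensor Xpc by -0.05. Of 26 genes of crosslink and excision repair 0 passed, 9 lay above 0 and the median was -0.01, with Fancf at -0.09, Fancb at -0.07 and the translesion polymerase Polh at -0.07. Of 23 glutathione and metallothionein genes, a list that also holds redox enzymes and transporters, 0 passed, 12 lay above 0 and the median was 0.00. Mt2, a metallothionein, differed by -0.19, and the glutathione transferases Gstt1 and Gsta2 by 0.11 and 0.10. The medians of these 3 lists were -0.03, -0.03 and -0.01 without the near-mean arrays. Rb1 differed by -0.00 ± 0.15 and Rbl1 (p107) by -0.02 ± 0.30. The labels and files do not state where these probes lie in the engineered genes, so these readings do not check the genotype.

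Interferon response genes had a median close to that of all genes. Of 34 measured genes 0 passed, 11 lay above 0 and 23 below, and the median was -0.02, and -0.07 without the near-mean arrays. By site it was -0.08 in bladder and 0.14 in metastasis. Without treated bladder 2 it was -0.13 and without treated bladder 1 it was 0.06. Cxcl10, a chemokine that draws T cells, differed by -0.14, Cmpk2 by -0.10 and Oasl1 by -0.06. Of 19 antigen presentation genes 0 passed, 10 lay above 0 and the median was 0.00, and -0.05 without the near-mean arrays. By site it was -0.11 and 0.26, and it ran from -0.11 without the treated metastasis to 0.07 without treated bladder 1. B2m, the light chain of class I molecules, had the widest spread: 10.2, 15.4 and 11.4 in treated bladders, 8.79 to 14.5 in bladder tumors, and 15.8 in the treated metastasis against 13.1 to 14.6. Its difference of 0.60 carried an SE of 0.998. Erap1, which trims peptides, differed by 0.07 and H2-Eb1, a class II chain, by 0.04.

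Lymphocyte genes read near the level of most genes on the array. The mean of the T cell genes was 5.02 to 5.40 in untreated arrays, beside 4.63 to 5.26 for chemosensory receptor genes on the 15 arrays. Such readings lie near the low end, so T cell differences near 0 do not show that T cells were unchanged. Of 14 T cell genes 0 passed, 5 lay above 0 and the median was -0.02, with 0.04 in bladder and -0.09 in metastasis. Cd8a read 5.01, 4.81 and 4.75 in treated bladders, 4.61 to 5.08 in bladder tumors and 4.66 in the treated metastasis, against 5.38, 4.74, 4.75 and 4.99 in metastases, a difference of -0.05 ± 0.12. Cd8b1, Cd3e and Cd5 differed by -0.16, -0.10 and -0.07. Of 17 cytotoxic and natural killer cell genes 4 lay above 0, with a median of -0.02, Gzmb (granzyme B) at -0.16 and Nkg7 at 0.13. Of 20 immune checkpoint genes 8 lay above 0, with a median of -0.00. Cd274 (PD-L1) differed by -0.00 ± 0.13, Cd80 by -0.10, Sirpa by -0.08 and Havcr2 by -0.07. Of 14 B and plasma cell genes 3 lay above 0, with a median of -0.03, Cr2 at 0.06, Blk at 0.05 and Pax5 at -0.05. No gene of these 4 lists passed. Their medians were -0.01, -0.03, -0.03 and -0.04 without the near-mean arrays.

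Myeloid lists had medians below 0, again with no gene past the test. Of 18 neutrophil genes 17 lay below 0, the median was -0.11 and it was -0.22 without the near-mean arrays. S100a8 and S100a9, which form calprotectin, had the lowest differences of the list, -0.86 ± 0.99 and -0.84 ± 0.82. S100a9 read 8.003, 6.88 and 6.43 in treated bladders and 7.95 in the treated metastasis. Bladder tumors read 5.59 to 12.0 (median 7.55), and metastases 8.40, 7.79, 7.66 and 7.38, so every treated value lay within the untreated range. Without bladder tumor 6, whose mean over the list was 6.61 against at most 5.88 elsewhere, the list's median was -0.03, and -0.08 with the near-mean arrays also left out. Camp, a granule peptide, differed by -0.09.

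Of 24 macrophage and dendritic cell genes 19 lay below 0, with a median of -0.08, and -0.25 without the near-mean arrays. Their mean was 7.55 and 6.99 in metastasis 1 and 2 and 6.90 in the treated metastasis, and 5.65 to 6.504 in every other array. Treated bladders read 6.09, 5.89 and 5.86. By site the median was -0.16 in bladder and 0.12 in metastasis, where 16 of 24 lay above 0. It was -0.16 without the treated metastasis and -0.03 without metastasis 1. With the near-mean arrays also left out it ran from -0.33 without bladder tumor 1 to -0.14 without the treated metastasis. Ctsk, a collagen-cutting protease also made by osteoclasts, differed by -0.18, C1qc by -0.11 and Cd209a by 0.10. Of 31 chemokines 24 lay below 0, with a median of -0.06, and -0.09 without the near-mean arrays. By site it was -0.06 and 0.01, and it was -0.02 without metastasis 1. Cxcl1 differed by -0.11 and Ccl19 by 0.14.

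**Figure D2:**
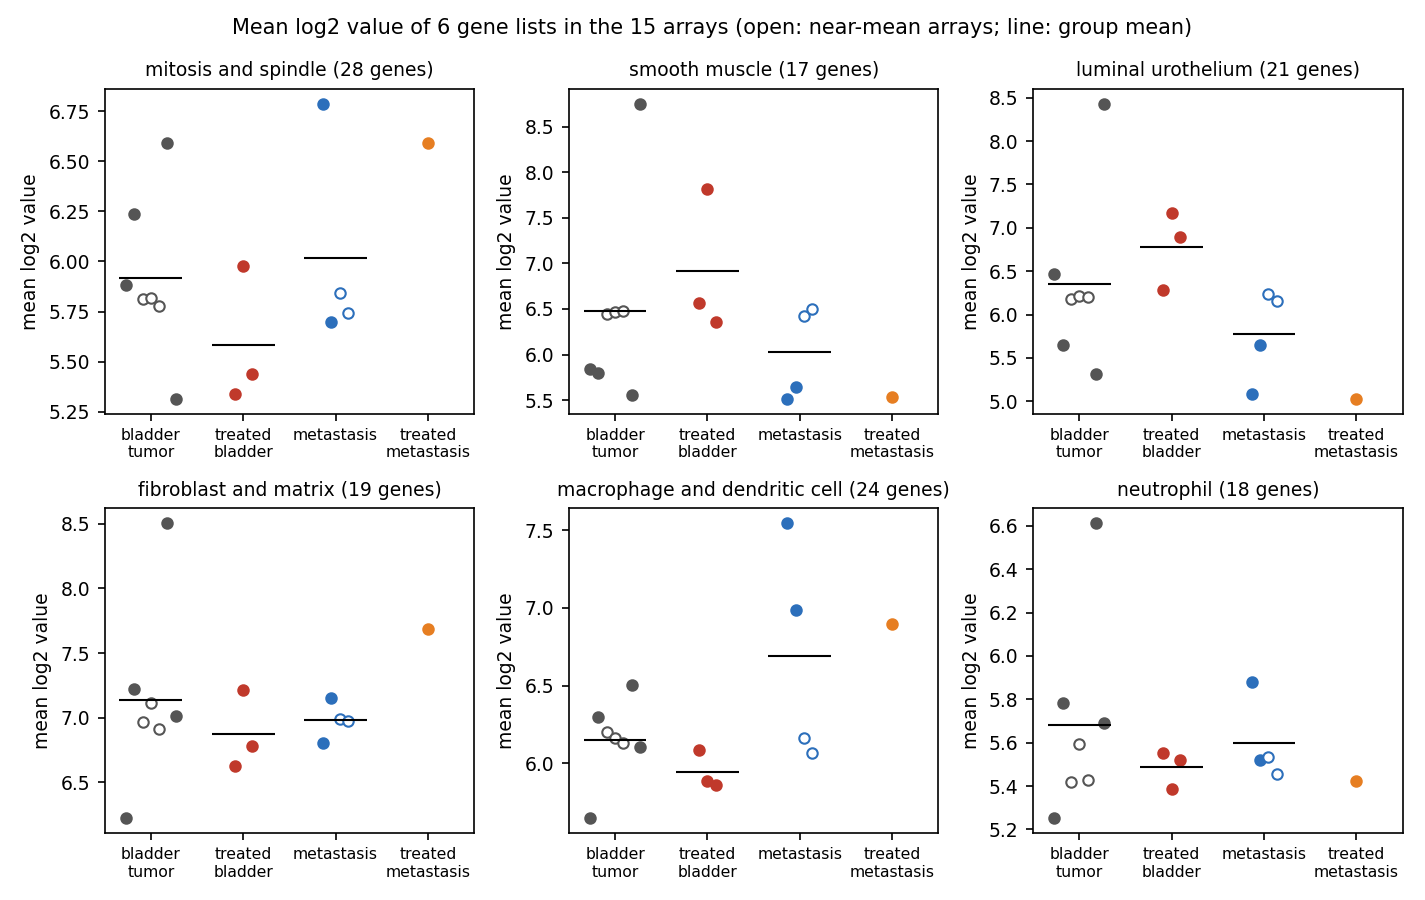
Mean log2 value of the measured genes of 6 lists in the 15 arrays, by group; each point is an array, open points are the near-mean arrays and the line is the group mean. Treated points lie within the range of the untreated points of both sites together, except the treated metastasis for the luminal list (5.03, against at least 5.08). Beside the untreated metastases alone, the treated metastasis also lies outside for 2 further lists. These are fibroblast and matrix (7.68, against 6.80 to 7.16) and neutrophil (5.42, against 5.46 to 5.88). The near-mean arrays sit close together.

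Luminal and smooth muscle lists had medians above 0 in bladder and below 0 in metastasis, and no member passed. Of 21 luminal urothelium genes 16 lay above 0 and the median was 0.09, also without the near-mean arrays, with 0.40 in bladder and -0.56 in metastasis. Upk1b differed by 0.58 ± 0.89, Krt7, a simple epithelial keratin, by 0.19 ± 0.32 and Cldn3 by -0.07. The list's mean was 6.28, 7.17 and 6.89 in treated bladders, inside the 5.31 to 8.43 of bladder tumors, and 5.03 in the treated metastasis, below the 5.08 to 6.24 of metastases. Without treated bladder 2 the median was -0.10, and without the treated metastasis 0.40. With the near-mean arrays also left out it ran from -0.14 without bladder tumor 6 to 0.37 without bladder tumor 7. Of 23 basal and squamous genes 10 lay above 0 with a median of -0.00 (-0.01 without the near-mean arrays), Sprr1b at -0.15, Trp63 at 0.06 and Krt13 at 0.05.

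All 17 measured smooth muscle genes lay above 0, with a median of 0.14 and of 0.25 without the near-mean arrays, and 0 passed. By site the median was 0.46 in bladder and -0.49 in metastasis. Acta2, smooth muscle actin, read 7.86, 10.8 and 6.71 in treated bladders, 5.94 to 12.2 in bladder tumors (median 7.45) and 7.17 in the treated metastasis, against 6.38, 7.11, 7.73 and 8.06. Its difference was 0.48 ± 0.93. Cald1 (caldesmon) differed by 0.13 and Ppp1r12b by 0.05. The list's mean was 7.82 in treated bladder 2 and 8.75 in bladder tumor 7, and 5.51 to 6.57 in the other 13 arrays. Without treated bladder 2 the median was -0.22, and without the treated metastasis 0.46. With the near-mean arrays also left out it ran from -0.06 without treated bladder 2 to 0.65 without bladder tumor 7. The muscle wall of the bladder holds such cells, and how much of it each sample contained is not given in the labels.

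The fibroblast and EMT lists had medians of opposite sign at the sites. Of 19 fibroblast and matrix genes 7 lay above 0 and the median was -0.03, with -0.25 in bladder and 0.66 in metastasis. It was -0.08 without the near-mean arrays, without bladder tumor 6 it was 0.12 and without the treated metastasis -0.25. Dcn (decorin) read 7.89, 8.86 and 7.90 in treated bladders against 5.87 to 10.01, and 11.2 in the treated metastasis against 8.80, 9.98, 8.14 and 8.30. Its difference was 0.39 ± 0.67, Sparc differed by 0.18 (-0.063 with quantile normalization once more) and Fap by -0.05. Of 15 EMT regulators 12 lay below 0 with a median of -0.08, and -0.12 without the near-mean arrays. By site it was -0.16 in bladder and 0.21 in metastasis, and without bladder tumor 6 it was 0.06, both with and without the near-mean arrays. Prrx1 differed by -0.17, Cdh2 (N-cadherin) by -0.10 and Snai1 by -0.06. Of 14 endothelial genes 8 lay above 0 with a median of 0.00 (0.03 without the near-mean arrays), Plvap at -0.20, the angiopoietin receptor Tek at 0.10 and Vwf at 0.04. No gene of these 3 lists passed.

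Stress and metabolic lists had medians between -0.06 and 0.04, and 0 of their members passed. Of 17 immediate early genes 15 lay below 0 with a median of -0.06, Ier3 at -0.13, Fosl1 at -0.11 and Jund at -0.09. Of 19 hypoxia and glycolysis genes 18 lay below 0 with a median of -0.06, the glycolytic enzyme Tpi1 at -0.15, Bnip3 at -0.10 and Car9 at -0.07. Of 18 genes of the unfolded protein response 12 lay below 0 with a median of -0.02, and the site medians were -0.14 and 0.37. Dnajb9, a chaperone partner, differed by 0.13, Herpud1 by 0.09 and Sel1l by -0.05. Of 29 oxidative phosphorylation genes 14 lay above 0 with a median of -0.00, Cox6c at 0.10, Uqcrc1 at -0.09 and Cox7c at -0.08. Of 18 measured ribosomal protein genes 14 lay above 0 with a median of 0.04, and of 0.00 without the near-mean arrays. Rpl7 differed by 0.15, Rpl22 by 0.14 and Rpl11 by 0.09, all much less than Rpl41.

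Most of these lists also turned with the site and with single arrays. In bladder and metastasis the medians were -0.10 and 0.11 for immediate early genes, -0.12 and 0.20 for hypoxia, and -0.09 and 0.25 for oxidative phosphorylation. The hypoxia median was -0.13 without the near-mean arrays, with 19 of 19 below 0. So computed, the immediate early median was -0.08, the unfolded protein median -0.10 and the oxidative phosphorylation median -0.04. Without treated bladder 1 the immediate early median was 0.03 and the unfolded protein median 0.07. Without treated bladder 3 the hypoxia median was 0.04 and the oxidative phosphorylation median 0.09.

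**Figure D3:**
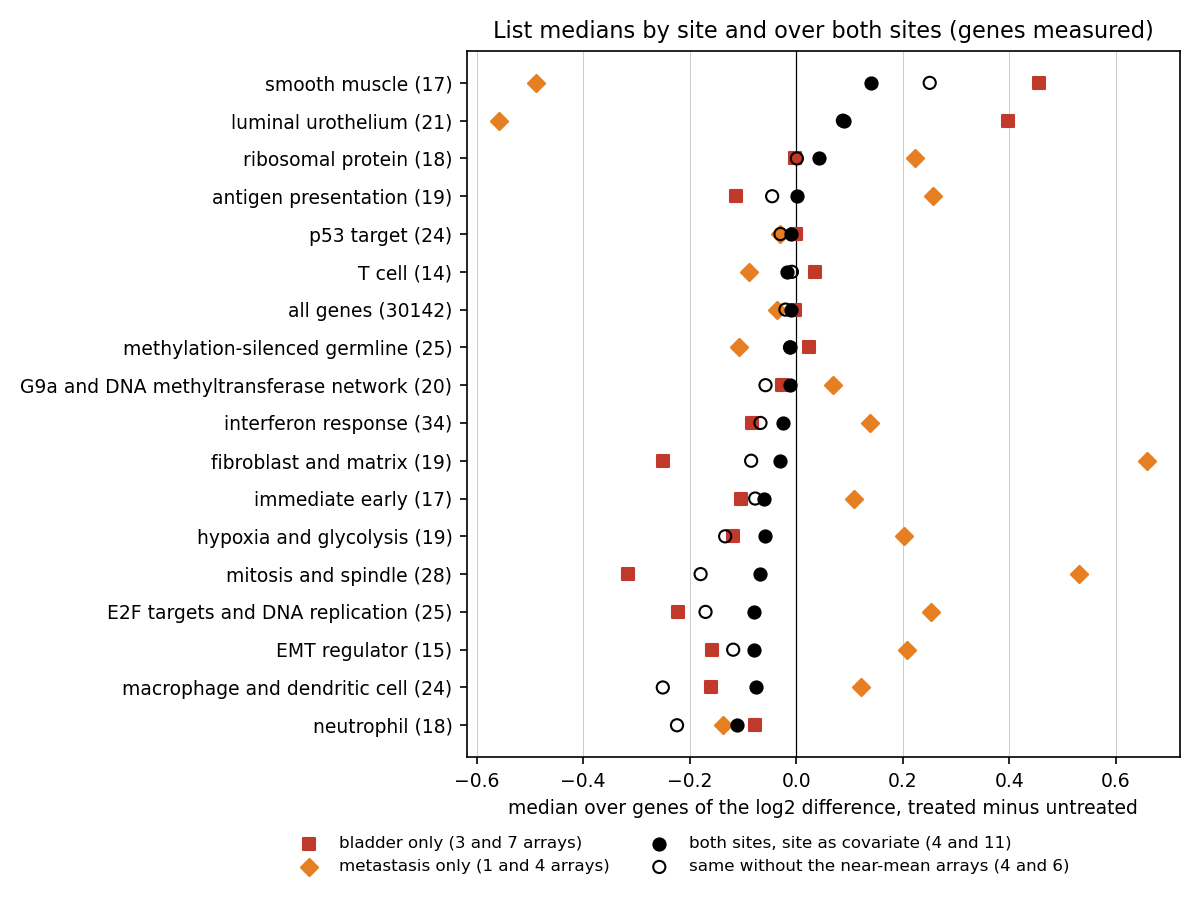
Median over the measured genes of each list of the log2 difference, treated minus untreated, with both sites in the fit (filled circles), without the near-mean arrays (open circles), in bladder alone (squares) and in metastasis alone (diamonds). For mitosis, fibroblast, luminal and smooth muscle genes the squares and diamonds lie on opposite sides of 0 and the circles lie between them.

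The bladder and the metastasis gave opposite differences for most genes. Across the 30142 genes the difference in bladder (3 treated, 7 untreated) and the difference in metastasis (1 treated, 4 untreated) correlated at r = -0.63 (Spearman rho = -0.64), and 25.9% of genes had the same sign at both. These 2 differences share no array, genes are not independent replicates, and the arrays share their normalization. Without the near-mean arrays r was -0.61 and 29.7% had the same sign. The spread over genes was wider in metastasis (SD 0.34) than in bladder (SD 0.17), and 468 genes differed by 1 or more in metastasis against 41 in bladder. A difference that rests on fewer arrays, here 1 treated metastasis, varies more, so these numbers are not read as a larger change in metastasis. With a weight of 0.724 on bladder, the fit over both sites averages such opposite differences towards 0.

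The difference between sites was tested as an interaction of treatment and site, in which the treated metastasis is a lone sample assumed to vary like the other groups. In limma's test 0 genes (0%) passed and 646 (2.14%) had an unadjusted p under 0.05. The smallest p belonged to Bloc1s3, Angptl7, Zscan4e, Prox2 and Zxdb, each with an adjusted p of 0.998. Angptl7, a secreted angiopoietin-like protein, read 8.24 in the treated metastasis against 5.38 to 5.99 in untreated ones. In treated bladders it read 5.35, 5.13 and 5.03 against 5.28 to 8.003 in bladder tumors. The metastasis difference exceeded the bladder difference by 3.59. For Prox2 it exceeded it by 1.46, and for Zscan4e, Bloc1s3 and Zxdb the interaction was -1.34, -1.08 and -0.87. The mitosis, luminal and smooth muscle lists, with site medians of opposite sign, held 0 genes past this test.

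**Figure D4:**
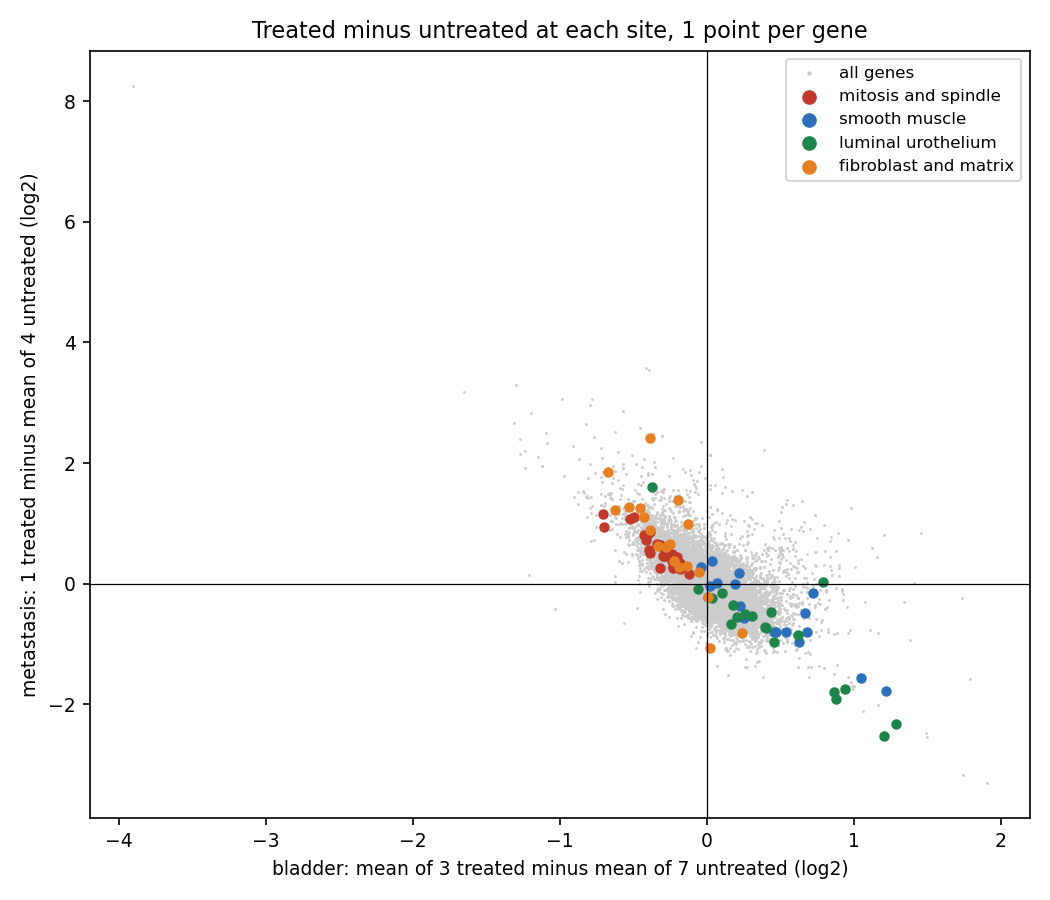
Treated minus untreated log2 difference of each gene in bladder (horizontal axis, 3 against 7 arrays) and in metastasis (vertical axis, 1 against 4 arrays), with the genes of 4 lists in colour. The cloud runs from upper left to lower right (r = -0.63), with mitosis genes at the upper left and luminal genes mostly at the lower right, and a single point lies far from the rest at the upper left.

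Markers of other organs were examined because metastases and bladders can hold neighbouring tissue. The mean of 14 liver genes was 7.02 in metastasis 2 and 4.67 to 5.48 in the other 14 arrays. Alb (albumin) read 9.53 in metastasis 2 and 6.86 in the treated metastasis, and 5.06 to 5.80 in the other metastases. Ahsg, another liver marker, read 10.58 in metastasis 1, 10.39 in metastasis 2 and 9.501 in the treated metastasis. It read 6.63 and 6.66 in metastasis 3 and 4, and 5.16 to 6.77 in bladder tumors. Metastasis 1 thus had the highest Ahsg and the lowest Alb of the metastases, so these genes did not rank the metastases alike. The mean of 8 mesothelial genes was 6.61 in metastasis 2, 6.54 in the treated metastasis and 4.92 to 6.08 elsewhere. The lists for lung, kidney, cartilage and bone, skeletal muscle, adipocyte, male glands, nerve and erythrocyte had medians from -0.06 to 0.01. Whether host tissue has a part in the site differences was not tested.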

How the data were processed

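RNA of 20 tissue samples was measured on Affymetrix whole-transcript arrays. The authors deposited log2 values; the submitters' processing notes name RMA and Affymetrix Expression Console, with no version. Of 65956 rows, 284 hold values over 16, more than a scanner count can reach on the log2 scale, so a further step by the authors is possible for these. The platform annotation named the rows (30604 with 1 symbol, 2146 with several, which were not used, and 33206 not listed), giving 30142 genes; of the rows of a gene, that with the highest mean was kept.

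limma 3.58.1 (R 4.3.3) fitted treatment with site as a covariate to the 15 arrays with lmFit and eBayes. Two-sided p-values were adjusted by Benjamini-Hochberg over all genes, with a threshold of 0.05. Single genes also had an exact permutation test of treatment within sites. The fit was tried on simulated data in which genes varied independently and the sites did not differ. Such data lack the near-mean arrays and the shared variation of the real ones, so they do not show how the test behaves here. Precision is limited by the number of arrays, and signal over background was not used here.

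The members and the 40 lists (707 of 794 entries measured) were chosen with earlier results of these data known, as were the near-mean arrays. Named genes were the 12 higher and 12 lower with the smallest p, 6 and 6 without the near-mean arrays, 3 of each list described, the 5 with the smallest interaction p and fixed genes of the drug targets. Predicted genes, small RNA genes, pseudogenes, receptor families and immune segments were left out of the rule. Olfr981, Gm10139, Gm25128, Rpl31-ps8, Rn28s1, Rn7s1, Rn7s2, Mir3470a and Mir3473a therefore lay outside it and were named after their values were seen. So were Alb, Ahsg, Upk3a, Uty, Eif2s3y and Kdm5d. Lists of other organs' markers are given as counts or ranges. Alternatives were other sets of arrays, weights, priors, normalization, row rules, a replicate block and leaving out each array. Replicate numbers did not pair samples. Some engineered loci are not analysed here.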

Additional observations from a re-analysis of the deposited data

Results flagged for a closer look

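Within the bladder tumors (7 arrays) and the metastases (4 arrays), the highest or lowest array was set against its nearest neighbour with Dixon's criterion at the 95% level. Of 352 groups of values tested, 42 had an array that stood apart, and chance gives about 1 in 20 for independent, normally distributed values. Here genes and lists vary together and the near-mean arrays sit close to each other, so the 42 cannot be set against that rate. The values are log2 readings, and no cause was tested.

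Bladder tumor 6 stood apart from its group for Speer4b (5.37), Hspa13 (6.37), Arntl (6.60), Birc5 (5.82), Tnfrsf10b (7.04), Cd209a (5.41), Ccl19 (4.53), Cxcl1 (5.75), Prrx1 (8.46), Snai1 (6.22) and the mean of the lists for interferon response (6.35), neutrophil (6.61), EMT regulator (7.39), unfolded protein response (7.43), hypoxia and glycolysis (7.27), adipocyte (5.26), sex-linked (4.85). Bladder tumor 1 stood apart from its group for Fas (5.09), Dcn (5.87). Bladder tumor 7 stood apart from its group for Camp (6.45), Ppp1r12b (5.96), Acta2 (12.16) and the mean of the lists for luminal urothelium (8.43), smooth muscle (8.75). Bladder tumor 5 stood apart from its group for Zscan4e (3.999). Metastasis 3 stood apart from its group for COX1 (12.54), Cr2 (5.24). Metastasis 1 stood apart from its group for Fancf (4.39) and the mean of the lists for E2F targets and DNA replication (6.63), mitosis and spindle (6.79), glutathione and metallothionein (6.80), antigen presentation (7.45), chemokine (6.42), unfolded protein response (7.15), oxidative phosphorylation (6.97). Metastasis 2 stood apart from its group for H2-Eb1 (5.20), Camp (5.65), Vwf (5.05) and the mean of the lists for liver (7.02), nerve and Schwann cell (4.74), mesothelium (6.61). Metastasis 4 stood apart from its group for Sprr1b (5.76).

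Most of these values belong to bladder tumor 6 and 7 and to metastasis 1 and 2. The treated groups, of 3 arrays and 1, were too small to be examined this way.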

How the results depend on the processing

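None of the 29 alternatives tried for the comparison of treated with untreated tissue called a gene, with 42 to 597 genes at an unadjusted p under 0.05 and adjusted p-values of 0.463 or more. The 13 alternatives without the near-mean arrays called none either (29 to 114 unadjusted). Of 17 alternatives for the interaction of treatment and site (418 to 1613 unadjusted), 1 called a gene: without bladder tumor 1, an immunoglobulin kappa variable segment passed with an interaction of 10.7 and an adjusted p of 0.0396, so leaving out each array gave 0 to 1 genes. The median over all genes stayed between -0.03 and 0.00.

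Same-numbered arrays were not shown to be pairs: of 10 pairs, correlations of their deviations ran from -0.51 to 0.44 and 2 were over 0.1. With the replicate number as a block, which leaves out the treated metastasis, 0 genes passed and 597 had an unadjusted p under 0.05. Of 131 genes named for their treatment difference, 0 passed under any alternative, 76 kept their sign in every one and 55 turned sign in at least 1; the cause was not tested. The turned log2 differences were, with the replicate block, Fas 0.19, Peg3 -0.080, Erap1 -0.045, Cd8b1 0.078, Cd5 0.044, Nkg7 -0.0088, Havcr2 0.091, Blk -0.048, S100a8 0.067, Cldn3 0.083, Krt13 -0.025, Sparc -0.0051, Bnip3 0.032, Uqcrc1 0.025, Rpl11 -0.0042, Ehmt2 -0.060, Ehmt1 0.00091, Dnmt3b -0.10, Rb1 0.19, Cdkn1a 0.22, Cd8a 1.2e-05. In bladder arrays only they were Xpc 0.0039, Fas 0.10, Gstt1 -0.11, Erap1 -0.090, Cd5 0.0036, Havcr2 0.064, Ctsk 0.16, Sparc -0.13, Dcn -0.39, Fap 0.0088, Dnajb9 -0.047, Herpud1 -0.077, Rb1 0.017, Cdkn1a 0.18, Cd8a 0.048, Cd274 0.063. With quantile normalization once more they were Bc1 -0.15, Sparc -0.063, Rb1 0.031, Cd274 0.014, Rn28s1 -0.29. With all 20 arrays they were Rb1 0.00086, Cdkn1a 0.0052, Cd274 0.0035. Centred on array medians they were Ehmt1 0.012, Rb1 0.011, Cd274 0.0093. Without the near-mean arrays they were Ehmt2 -0.032, Dnmt3b -0.00061. With rows of a gene averaged they were Fas 0.0010, Cr2 -0.050. With array weights it was Ehmt2 -0.0079.

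Leaving out each array in turn gave these ranges for the 44 genes that turned sign: Rbl1 -0.22 to 0.15, Cdkn1a -0.28 to 0.18, Trp63 -0.12 to 0.21, Dnmt3a -0.13 to 0.028, Cd274 -0.049 to 0.063, Ehmt1 -0.082 to 0.051, Rb1 -0.059 to 0.057, Dnmt3b -0.041 to 0.065, H2-Eb1 -0.016 to 0.18, Prrx1 -0.46 to 0.13, Snai1 -0.094 to 0.029, Vwf -0.029 to 0.13, Xpc -0.089 to 0.0039, Fas -0.13 to 0.10, Gstt1 -0.11 to 0.19, Erap1 -0.090 to 0.15, Cd5 -0.12 to 0.0036, Havcr2 -0.16 to 0.064, Ctsk -0.28 to 0.16, Sparc -0.13 to 0.35, Dcn -0.39 to 0.68, Fap -0.13 to 0.0088, Dnajb9 -0.047 to 0.23, Herpud1 -0.077 to 0.23, Cd8a -0.12 to 0.048, Dnmt1 -0.39 to 0.046, Tex19.1 -0.0064 to 0.31, Cd80 -0.26 to 0.033, Cox7c -0.16 to 0.0060, Fancf -0.20 to 0.0012, Dnmt3l -0.15 to 0.012, Peg3 -0.032 to 0.40, B2m -0.28 to 1.41, Pax5 -0.090 to 0.0085, Krt7 -0.099 to 0.44, Acta2 -0.35 to 1.003, Cald1 -0.13 to 0.34, Ehmt2 -0.029 to 0.077, Osbpl11 -0.20 to 0.059, Cdc20 -0.39 to 0.022, Mt2 -0.31 to 0.0049, Cr2 -0.030 to 0.14, Cd209a -0.015 to 0.23, Tpi1 -0.38 to 0.056.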
